A study of Mus musculus with 5 samples.

Results

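The striatal projection neuron transcription factors described here are 9 genes: the forkhead genes Foxp1 and Foxp2, Ebf1, the homeobox genes Isl1 and Gsx2, and the zinc finger genes Bcl11b, Ikzf1, Zfp503 and Sp9. They were chosen by name, with earlier results of these data known. All 9 were found among the 20340 coding genes of the deposited table, with 14 transcripts in all. The level of a gene is its FPKM (fragments per kilobase of transcript and per unit of mapped fragments in the library) summed over its transcripts, which is a level per length. Poly(A) RNA was sequenced from microdissected, snap-frozen brain regions. All mice were C57BL/6 wild type males of adult age, and the labels name neither a treatment nor how many animals a sample holds. The regions were the subventricular zone (SVZ, 2 samples labelled as biological replicates), the olfactory bulb (OB), the dentate gyrus (DG) and the striatum (STR), with 1 sample each for the last 3. The first 3 are niches or targets of adult neurogenesis and the striatum is the control without it.

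Spiny projection neurons make up most of the striatum. They arise in the embryonic lateral ganglionic eminence, where Gsx2 patterns the progenitors, and they divide into a direct pathway class with D1 dopamine receptors and an indirect pathway class with D2 receptors. Foxp1, Foxp2, Bcl11b and Zfp503 act as they differentiate, Isl1 and Ebf1 are best known from the direct pathway class, and Sp9 and Ikzf1 from the enkephalin-expressing indirect class. None of the 9 is restricted to the striatum: Bcl11b also serves in dentate granule and deep cortical neurons, Sp9 in olfactory bulb interneurons, Isl1 in cholinergic interneurons, Ebf1 in B lymphocytes and mural cells, and Ikzf1 in lymphocytes and microglia.

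The striatal identity of the samples was checked on 8 genes of projection neurons, whose summed level was 3989 FPKM in STR, 4645 and 3773 in the SVZ pair, 298 in OB and 75.0 in DG. Penk, set aside after its values were seen, made up most of the OB sum. The other 7 genes summed to 2776 FPKM in STR, 3063 and 2089 in the SVZ pair, 68.4 in OB and 62.5 in DG. Both SVZ dissections therefore held striatal projection neuron RNA at about the level of the striatum. In bulk tissue, fewer cells of a type and less RNA per cell cannot be told apart. The libraries fell into 2 sets that cut across the regions. Of RefSeq transcripts shorter than 200 bases, 153 reached 1 FPKM in SVZ sample 2 and 161 did in STR, but only 14 to 24 did in SVZ sample 1, OB and DG. Over 13894 coding genes, the difference between SVZ sample 1 and SVZ sample 2 followed the GC content of the transcripts (Spearman rho = 0.706, a description across genes). DG had 16725 transcripts at 0, and the remaining libraries had 9564 to 10807. The read depth is unknown, since FPKM carries no counts.

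The sequences before 4 transcription starts are given as a description, and no expression result rests on them. Foxp1 was picked because it has RefSeq transcripts from distant starts that differed between libraries. Isl1 was picked because it was near 0 outside SVZ and STR, and Sp9 because it was highest in OB. The sequences are from the RefSeq promoter table on build GRCm38.p6, which held 12 windows for 8 of the 9 members, whereas the expression values are on mm9. Each is the 250 bases before a start, 5′ to 3′ on the gene's strand. Capitals mark matches on either strand to 4 short motifs: the homeodomain core TAATTA, the Meis core TGACAG, the E-box CAGCTG and the forkhead core TGTTTAC, none of which overlap here.
Foxp1, middle start, chr6:99266516-99266765, minus strand: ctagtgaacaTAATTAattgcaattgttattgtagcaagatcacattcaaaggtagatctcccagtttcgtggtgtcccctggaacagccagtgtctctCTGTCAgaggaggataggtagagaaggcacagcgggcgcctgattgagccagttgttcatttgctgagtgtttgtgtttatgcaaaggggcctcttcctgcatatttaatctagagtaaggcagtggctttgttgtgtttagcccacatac
Foxp1, innermost start, chr6:99028299-99028548, minus strand: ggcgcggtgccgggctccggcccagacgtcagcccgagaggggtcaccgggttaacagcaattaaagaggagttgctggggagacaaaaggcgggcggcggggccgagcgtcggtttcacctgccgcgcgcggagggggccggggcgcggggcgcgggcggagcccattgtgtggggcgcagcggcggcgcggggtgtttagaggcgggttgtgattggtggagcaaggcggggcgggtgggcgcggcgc
Isl1, chr13:116309689-116309938, minus strand: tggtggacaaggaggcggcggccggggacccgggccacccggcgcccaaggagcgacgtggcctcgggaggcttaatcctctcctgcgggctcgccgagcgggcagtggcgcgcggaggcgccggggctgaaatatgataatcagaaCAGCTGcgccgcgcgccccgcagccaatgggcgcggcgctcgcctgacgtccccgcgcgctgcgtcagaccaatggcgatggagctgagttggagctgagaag
Sp9, chr2:73271676-73271925, plus strand: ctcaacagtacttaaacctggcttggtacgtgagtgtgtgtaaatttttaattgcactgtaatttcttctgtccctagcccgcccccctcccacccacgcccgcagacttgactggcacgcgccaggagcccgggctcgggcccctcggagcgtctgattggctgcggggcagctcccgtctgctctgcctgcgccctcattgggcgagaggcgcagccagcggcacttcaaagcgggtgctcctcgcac

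The homeodomain core lay 240 bases and the Meis core, on the reverse strand, 151 bases before the middle Foxp1 start. The E-box lay 103 bases before the Isl1 start. No other match was found in the 12 windows. Among 32851 windows of the same length in the table, TAATTA occurred in 4.84%, TGACAG in 15.9%, CAGCTG in 13% and TGTTTAC in 3.17%, so each match is a description only. The windows also differed in base composition. The middle Foxp1 window had 45.2% GC and 3 CpG dinucleotides, while the innermost had 74% GC and 34 CpG, and the median window had 52.4% GC and 6 CpG. The Isl1 and Sp9 windows had 71.2% and 62.4% GC, with 33 and 18 CpG.

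**Figure D1:**
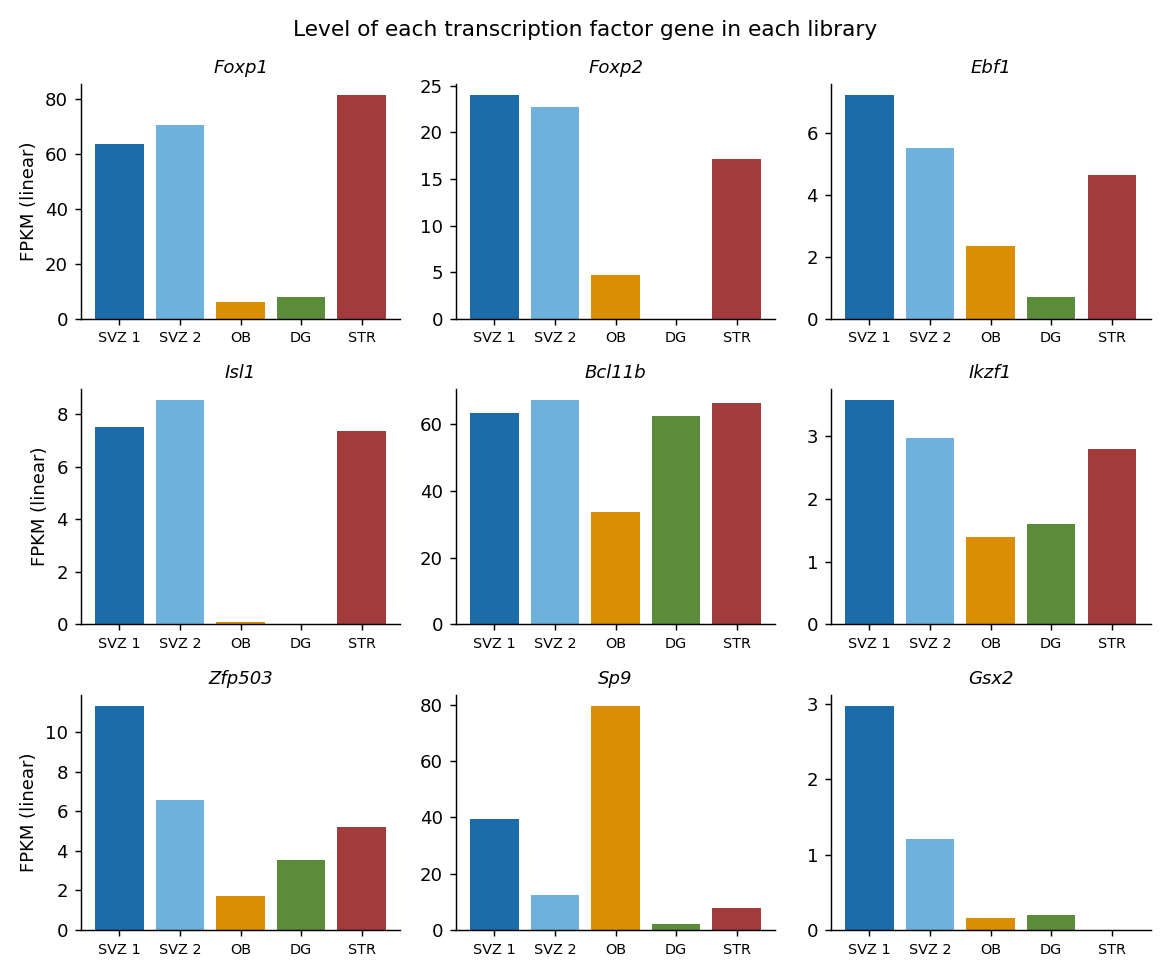
FPKM (linear axis from 0) of each gene in the 5 libraries, 1 bar per library, with no error bar because each bar is 1 sample. Foxp1, Foxp2, Isl1, Ebf1, Zfp503 and Ikzf1 were higher in both SVZ samples and STR than in OB and DG. The share of coding genes that part the libraries in this way was not counted. For Ebf1, Zfp503 and Ikzf1, the limma interval of the step from STR to the next lower region included 0. Bcl11b was lowest in OB, with DG just below the SVZ samples and STR. Sp9 was highest in OB at 79.7 FPKM, and Gsx2 was above 1 FPKM only in the SVZ pair.

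Foxp1, a forkhead repressor of striatal projection neurons, was at 63.6 and 70.6 FPKM in the SVZ pair, 81.5 in STR, 6.18 in OB and 7.83 in DG. The 3 libraries with high sums of projection neuron markers thus lay above OB and DG. The share of coding genes that part the libraries in this way was not counted. On the log2(FPKM + 1) scale, used for every difference below, Foxp1 was -3.52 ± 0.45 in OB minus STR and -3.22 ± 0.45 in DG minus STR. The ± values of differences are limma standard errors (n = 2 for the SVZ, 1 for OB, DG and STR). They rest on the spread of the SVZ pair, moderated by that of all genes, and assume that the other regions vary like it. The SVZ samples lie in different library sets, so the spread behind these errors and the p-values below also holds the set difference. The order was STR, SVZ, DG, OB, and the 95% limma interval included 0 both for SVZ minus STR (-0.28 ± 0.39) and for OB minus DG (-0.30 ± 0.45). The step between these pairs, SVZ minus DG, had an interval of 1.79 to 4.10. In STR, Foxp1 exceeded 96.0% of coding genes.

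Foxp2, the forkhead gene tied to vocal learning and speech, was at 24.0 and 22.7 FPKM in the SVZ pair, 17.1 in STR, 4.74 in OB and 0.0208 in DG. OB lay between the striatal libraries and DG: OB minus DG was 2.49 ± 0.46 (95% limma interval 1.13 to 3.86), where Foxp1 had -0.30 ± 0.45. The contrast between the 2 genes was not tested. DG minus STR was -4.15 ± 0.46, the lowest difference among the 8 members tested in that pair, and OB minus STR was -1.66 ± 0.46. SVZ minus STR was 0.42 ± 0.40, with an interval that included 0.

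Isl1 (mm9 chromosome 13, 117088478 to 117099896), a LIM homeobox gene, was at 7.51 and 8.52 FPKM in the SVZ pair and 7.33 in STR. It was at 0.0719 FPKM in OB and was listed at 0 in DG. The 3 higher libraries spanned 7.33 to 8.52 FPKM, a narrow range beside the gap to OB and DG. OB minus STR was -2.96 ± 0.40 and DG minus STR -3.06 ± 0.40, while SVZ minus STR was 0.11 ± 0.35 (95% limma interval -0.93 to 1.15). The 6 cholinergic interneuron markers summed to 28.2 and 17.3 FPKM in the SVZ pair, 40.7 in STR and 0.473 in OB. All 6 were listed at 0 in DG. Their sum was lower in both SVZ samples than in STR, whereas Isl1 was not. The 8 projection neuron markers summed to 4645 and 3773 FPKM in the SVZ pair, 3989 in STR, 298 in OB and 75.0 in DG. How much of Isl1 came from either cell type was not tested.

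Ebf1 (mm9 chromosome 11, 44431636 to 44818674), a helix-loop-helix factor in the differentiation of striatonigral neurons, was at 7.22 and 5.52 FPKM in the SVZ pair, 4.62 in STR, 2.33 in OB and 0.704 in DG. In the order SVZ, STR, OB, DG the interval of each neighbouring difference included 0: SVZ minus STR was 0.38 ± 0.39, OB minus STR -0.75 ± 0.46 and OB minus DG 0.97 ± 0.46. Across the whole order, SVZ minus DG was 2.10 ± 0.39 and DG minus STR -1.72 ± 0.46. The summed level of 8 mural cell markers was 104 and 66.2 FPKM in the SVZ pair, 190 in OB, 68.3 in DG and 70.9 in STR. The OB sum rested on Vtn: the other 7 mural genes summed to 45.6 FPKM in OB, 66.6 and 48.5 in the SVZ pair, 49.1 in STR and 37.6 in DG. The 7 lymphocyte markers summed to between 1.23 and 1.94 FPKM in every library. How much of Ebf1 came from such cells was not tested.

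Bcl11b (Ctip2; mm9 chromosome 12, 109148613 to 109241624), the zinc finger gene of striatal, granule and deep cortical neurons, was at 63.5 and 67.2 FPKM in the SVZ pair, 66.2 in STR, 62.5 in DG and 33.7 in OB. OB was the low library, and the other 4 ran from 62.5 to 67.2 FPKM. DG minus STR was -0.08 ± 0.46, and its 95% limma interval allowed any difference from -1.45 to 1.28. OB minus STR was -0.95 ± 0.46. The 7 dentate granule neuron markers summed to 595 FPKM in DG, 127 in STR, 79.4 and 101 in the SVZ pair and 11.2 in OB, with Neurod1 at 0 in SVZ sample 2. Calb1 made up most of the STR and SVZ sums, and the other 6 genes summed to 484 FPKM in DG, 3.51 in STR, 6.50 and 5.54 in the SVZ pair and 7.62 in OB. Their part in the DG level of Bcl11b was not tested.

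Zfp503 (Nolz1; mm9 chromosome 14, 22803184 to 22808823), a zinc finger gene of the developing striatum, was at 11.3 and 6.58 FPKM in the SVZ pair, 5.20 in STR, 3.52 in DG and 1.72 in OB. SVZ minus OB was 1.83 ± 0.51, and in the order SVZ, STR, DG, OB the interval of each neighbouring difference included 0. Ikzf1 (Ikaros; mm9 chromosome 11, 11586216 to 11672929), the lymphoid zinc finger gene that also acts in enkephalin neurons, was low throughout: 3.57 and 2.97 FPKM in the SVZ pair, 2.79 in STR, 1.60 in DG and 1.40 in OB. The largest of its 6 differences between regions was 0.83 ± 0.34, in SVZ minus OB, and each 95% limma interval included 0. The 8 microglial markers summed to 198 and 143 FPKM in the SVZ pair, 197 in OB, 199 in DG and 186 in STR. The lymphocyte markers are given above, and the part of either cell type in Ikzf1 was not tested.

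Sp9 (mm9 chromosome 2, 73109983 to 73113828), a zinc finger gene of indirect pathway neurons and of bulb interneurons, was the member with its highest level in OB. It was at 79.7 FPKM in OB, 39.5 and 12.3 in the SVZ pair, 7.88 in STR and 2.24 in DG. The SVZ samples differed 3.21-fold, the widest SVZ spread among the 9 genes, so its errors were large: OB minus STR was 3.18 ± 0.98, OB minus DG 4.64 ± 0.98 and SVZ minus STR 1.39 ± 0.85. In the order OB, SVZ, STR, DG the interval of each neighbouring difference included 0. Migrating neuroblast markers (7 genes) summed to 982 FPKM in OB, 482 and 347 in the SVZ pair, 168 in STR and 166 in DG, and without Tubb3 to 333, 191 and 161, 21.6 and 30.3 FPKM. These markers were split: Dcx, Tubb3, Dlx1, Dlx5 and Sp8 were highest in OB, while Sox11 and Cd24a were highest in the SVZ. Sox11 was at 24.1 and 19.5 FPKM in the SVZ pair and 8.26 in OB, and Cd24a at 62.1 and 60.4 and at 21.6. Markers of bulb granule and periglomerular neurons (7 genes) summed to 1481 FPKM in OB and to between 169 and 306 elsewhere. The lists share Sp8. Their part in the Sp9 level was not tested.

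Gsx2 (mm9 chromosome 5, 75471626 to 75473918), the homeobox gene of ganglionic eminence progenitors that adult SVZ stem cells retain, was at 2.97 and 1.21 FPKM in the SVZ pair, 0.156 in OB and 0.194 in DG, and was listed at 0 in STR. It was the member closest to the floor of the data, and only comparisons with the SVZ passed the minimum of 1 FPKM. SVZ minus STR was 1.57 ± 0.46, SVZ minus OB 1.36 ± 0.46 and SVZ minus DG 1.31 ± 0.46. Stem and transit-amplifying cell markers (6 genes) summed to 104 and 54.3 FPKM in the SVZ pair, 63.0 in OB, 16.1 in DG and 6.79 in STR. The OB sum rested on Dlx2, and the other 5 genes summed to 70.6 and 44.9 FPKM in the SVZ pair, 12.9 in OB, 14.7 in DG and 6.31 in STR. Their part in the Gsx2 level was not tested. The genes set aside from these marker sums were chosen after their values were seen.

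**Figure D2:**
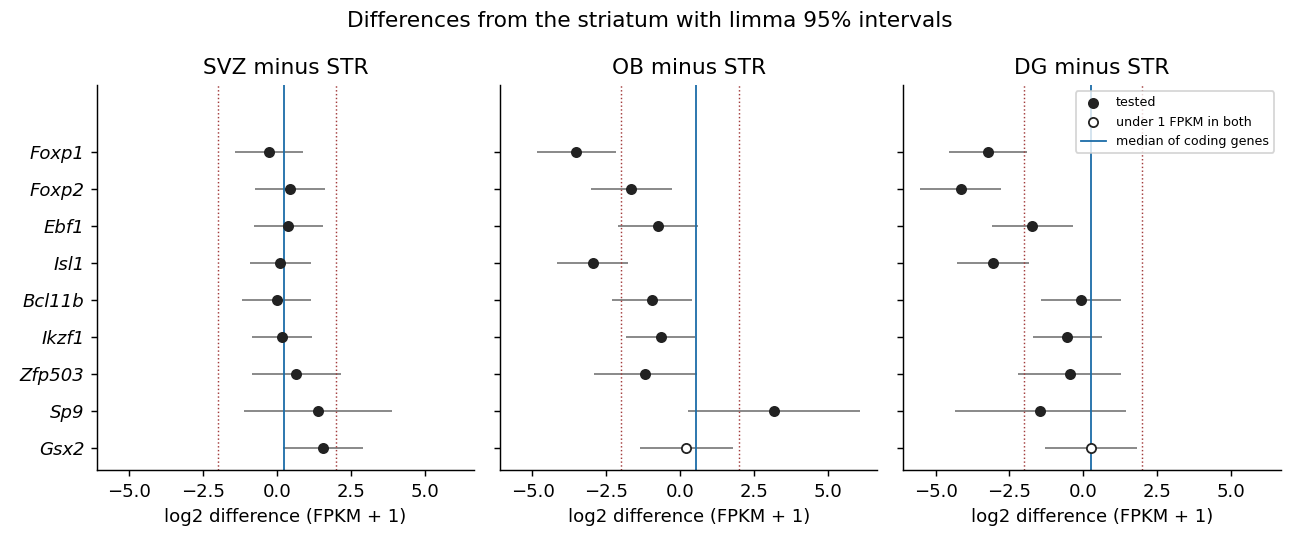
Difference of each gene from STR on the log2(FPKM + 1) scale in the SVZ, OB and DG, with the 95% limma interval as a bar, the median of coding genes as a solid line and differences of 2 as dotted lines. No member lay past a difference of 2 in the SVZ. Foxp1 and Isl1 lay below -2 and Sp9 above 2 in OB, and Foxp1, Foxp2 and Isl1 lay below -2 in DG.

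Counted by size, 0 of 9 members lay 2 or more log2 units higher or lower in the SVZ than in STR, where 1.48% of coding genes were higher by that much and 0.142% lower. In OB minus STR, 2 of the 8 members at 1 FPKM or more were lower (Foxp1 and Isl1) and 1 was higher (Sp9), against 2% and 6.4% of coding genes. In DG minus STR, 3 of 8 were lower (Foxp1, Foxp2 and Isl1), against 2.44%, and 0 were higher, against 3.42%. The median over tested members was 0.38, -1.07 and -1.59 in these 3 pairs, and the median over coding genes 0.24, 0.53 and 0.26. Between neurogenic regions, 3 of 9 were higher in SVZ than in OB (Foxp1, Foxp2 and Isl1), against 2.07%, and 5 of 9 were higher in SVZ than in DG (those 3, Ebf1 and Sp9), against 2.9%. The opposite direction held 0 members in both, against 3.59% and 2.12% of coding genes. In OB minus DG, 2 of 7 were higher (Foxp2 and Sp9), against 3.67%, and 0 lower, against 1.46%. After median ratio scaling the coding genes split otherwise, with 3.3% higher and 3.37% lower in OB minus STR, 2.55% and 3.23% in DG minus STR and 2.53% and 2.49% in SVZ minus OB. Of the calls by size, Ebf1 in SVZ minus DG was under 2 with quantile normalization, with GC centring and without SVZ sample 1, and Foxp2 in SVZ minus OB was under 2 with GC centring (1.78) and with the highest transcript in place of the sum. Sp9 in OB minus STR was under 2 with the library set as a term. These pairs share samples, so their counts are not independent. The members were chosen with earlier results of these data known, so a count above the share of coding genes is a description only. A count over tested members leaves out a gene that was under 1 FPKM in both regions: Gsx2 in 3 pairs and Isl1 in 1.

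By limma with Benjamini-Hochberg adjustment over all genes tested, 0 members passed an adjusted p of 0.05 in any pair, and the lowest adjusted p was 0.144, for Foxp2 in SVZ minus DG. No other gene passed either (0% of 14878 to 15941 genes). At an unadjusted p under 0.05, members numbered 1 of 9 in SVZ minus STR (4.75% of all genes), 4 of 8 in OB minus STR (14.1%), 4 of 8 in DG minus STR (11.9%), 5 of 9 in SVZ minus OB (14%), 5 of 9 in SVZ minus DG (14.1%) and 2 of 7 in OB minus DG (12.6%).

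Under 2 of the alternative scalings, members did pass limma's adjusted p of 0.05. Where each library was centred on the genes of like GC content, Foxp1, Foxp2 and Isl1 were lower in DG than in STR (limma adjusted p = 0.0231, 0.0189 and 0.0255), in a pair where 4.43% of all genes passed. Foxp1, Isl1 and Zfp503 were lower in OB than in STR (limma adjusted p = 0.0224, 0.0276 and 0.0326), where 4.07% passed. With that centring 4 members passed in SVZ minus OB (Foxp1, Foxp2, Isl1 and Zfp503; 7.4% of all genes), 5 in SVZ minus DG (those 4 and Ebf1; 7.73%) and 2 in OB minus DG (Foxp2 and Sp9; 4.85%). With quantile normalization, Foxp1 and Isl1 passed in OB minus STR (1.83%) and in SVZ minus OB (5%), Foxp2 and Isl1 in DG minus STR (1.25%), all 3 in SVZ minus DG (3.41%), and 0 members in OB minus DG (1.63%). Over the 7 alternatives that allow a test, the limma adjusted p ran from 0.0224 to 0.317 for Foxp1 and from 0.0276 to 0.317 for Isl1 in OB minus STR, and from 0.0326 to 0.582 for Zfp503. In DG minus STR it ran from 0.0231 to 0.325 for Foxp1, 0.0189 to 0.325 for Foxp2 and 0.0255 to 0.368 for Isl1. No member passed in SVZ minus STR under any of the 7.

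Since OB and DG lie in another library set than STR, the differences were also taken with the set as a term, which leads through the SVZ pair and leaves no degree of freedom for a test. Foxp1 and Isl1 were then at -3.37 and -2.80 in OB minus STR, beside -3.52 and -2.96 without the term. Sp9 moved from 3.18 to 1.58 in OB minus STR and from -1.45 to -3.06 in DG minus STR. Between SVZ sample 2 and STR, which form 1 set, Sp9 differed by 0.58 and Gsx2 by 1.14, and with SVZ sample 1 alone Sp9 minus STR was 2.19. Within the set of SVZ sample 1, OB and DG, Foxp1, Foxp2 and Isl1 were 3.17, 2.12 and 2.99 higher in the SVZ than in OB and 2.87, 4.61 and 3.09 higher than in DG. Sp9, Gsx2 and Zfp503, the members with the widest gap between SVZ samples, had GC contents of 52.5%, 54.5% and 58.9%, above those of Foxp1 (47.1%), Foxp2 (42.1%) and Isl1 (45.7%). Bcl11b, at 56.6% GC, differed by -0.08 between SVZ samples, Ebf1, at 43.1%, by 0.34 and Ikzf1, at 50.9%, by 0.20. The part of GC content in these gaps was not tested.

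**Figure D3:**
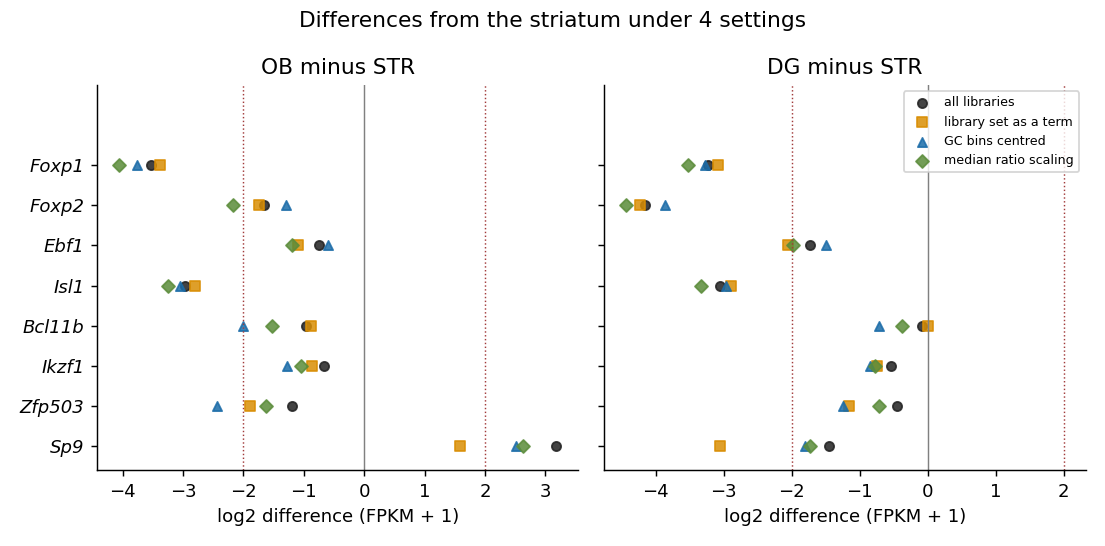
Differences from STR on the log2(FPKM + 1) scale for the 8 members tested, 1 symbol per setting, with dotted lines at differences of 2. Foxp1 and Isl1 stayed below -2 in both pairs under the 4 settings drawn, while Sp9 in OB minus STR ran from 1.58 to 3.18.

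The transcripts of Foxp1 differed between libraries in the deposited estimates. Foxp1 lies on mm9 chromosome 6, 98875336 to 99385339, and has 3 RefSeq transcripts in the table. In GENCODE M21 (GRCm38), NM_001197321 starts 168.8 kb and NM_001197322 407.1 kb downstream of the start of NM_053202, at or within 40 bases of the 2 Foxp1 starts whose sequences are printed above. The transcript from the outermost start was at 32.9 and 12.1 FPKM in the SVZ pair, 13.5 in STR, 5.20 in OB and 7.83 in DG. The transcripts from the 2 inner starts summed to 30.7 and 58.5 FPKM in the SVZ pair, 68.0 in STR and 0.980 in OB, and were listed at 0 in DG. Their share of Foxp1 was thus 83.4% in STR, 82.8% and 48.2% in SVZ samples 2 and 1, 15.9% in OB and 0% in DG. The SVZ pair differed and followed the library sets, so the part of region and of library set in OB or DG against STR cannot be told apart. Within the set of SVZ sample 1, OB and DG, the inner starts were at 30.7 FPKM against 0.980 and 0. The shares are the authors' model estimates from reads that the transcripts partly have in common, and no read count supports them.

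Foxp2, on mm9 chromosome 6, 14851349 to 15391977, had 2 transcripts, of which NM_212435 starts 284.2 kb downstream of NM_053242. The inner transcript made up 34.6% and 66.6% of Foxp2 in the SVZ pair, 61.6% in STR and 66.8% in OB, and the level in DG was too low to divide. The spread within the SVZ pair was larger than the difference between STR and OB. Bcl11b had 2 transcripts whose starts lie 0.2 kb apart, and the shorter, NM_021399, made up 70.5% and 88.6% in the SVZ pair, 71.6% in OB, 79.1% in DG and 81.3% in STR. The longer of the Ikzf1 transcripts, NM_001025597, made up 68.7% to 100% in every library.

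**Figure D4:**
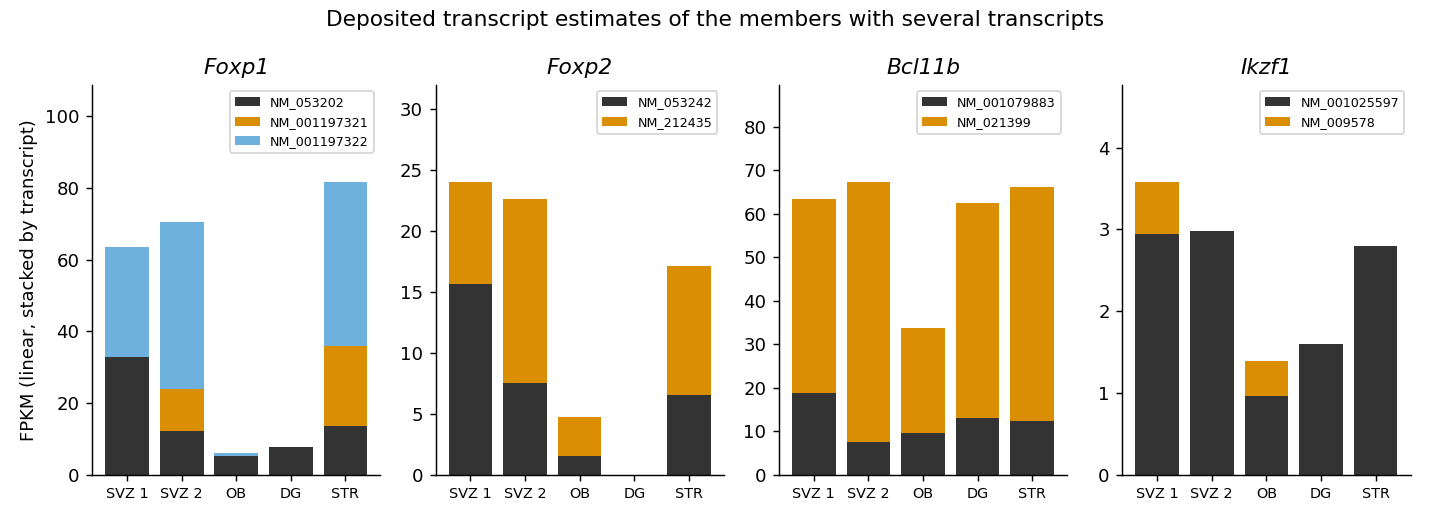
FPKM (linear axis from 0, stacked) of each deposited transcript of the 4 members with more than 1 transcript, in the 5 libraries; the dark bar is the transcript with the outermost start. For Foxp1 the dark bar is all of DG and most of OB, while the inner starts hold 83.4% of STR.

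Long noncoding RNAs of the authors' catalogue lay within 50 kb of 3 members, at 5 loci, 1 of which reached 0.5 FPKM. That locus, on the minus strand of mm9 chromosome 6, 14831987 to 14832721, has 2 exons and 518 bases and ends 18.6 kb before the start of Foxp2, a gene of the plus strand. It was at 0.916 and 1.44 FPKM in the SVZ pair, 1.44 in STR and 0.116 in OB, and was listed at 0 in DG. Its order of regions resembled that of Foxp2, with SVZ and STR above OB and DG, and its difference was -1.13 ± 0.32 in OB minus STR and -1.29 ± 0.32 in DG minus STR (limma adjusted p = 0.310 and 0.329). The catalogue transcripts antisense within Ebf1 and Ikzf1 were at 0.101 FPKM or less in every library. No label or header says whether the libraries keep strand, so reads of such overlapping transcripts cannot be told from those of the gene.

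The patterns most like each member were taken as the smallest Euclidean distance between centred log2(FPKM + 1) profiles over the 5 libraries, among 14028 other coding genes. Isl1 was the nearest gene to Foxp1 (distance 0.44), followed by the kinase gene Lrrk2 (0.47) and Gcnt2 (0.47). Nearest to Isl1 were Ptpn5, the striatum-enriched phosphatase (0.38), Foxp1 (0.44) and the retinoic acid receptor gene Rarb (0.60). These distances depend on the pseudocount of 1, which understates differences of low genes such as Isl1. With a pseudocount of 0.1, OB minus STR was -5.4 for Isl1 and -3.7 for Foxp1. Nearest to Foxp2 were Slc35d3 (0.48), the histamine receptor gene Hrh3 (0.54) and Fam40b (0.71). Gsx2 lay nearest to Cdca5, a cohesin regulator of dividing cells (0.18), BC051019 (0.19) and the replication gene Gins1 (0.20). For Sp9 the distances were larger, with the cadherin gene Cdh22 at 0.96, 1700027L20Rik at 1.08 and the homeobox gene Dlx5 at 1.11.

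For Ebf1 the nearest were Arhgap6 (0.22), Fa2h (0.29) and Arhgef15 (0.30), and for Zfp503 they were Rab15 (0.34), the cyclin gene Ccnd2 (0.34) and Mn1 (0.34). For Bcl11b they were Brdt (0.12), Ica1l (0.13) and Zfp120 (0.13), and for Ikzf1 Ccdc148 (0.12), Kremen2 (0.16) and Mpped2 (0.17). Bcl11b and Ikzf1, with the smallest distances, also had small differences between libraries.

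Of 21 family relatives of the members, 14 were tested in OB minus STR, with 3 higher by 2 or more and 0 lower, against 6.4% and 2% of coding genes. In DG minus STR 0 of 10 tested were higher or lower by that much, against 3.42% and 2.44%, and a count of 0 among so few genes is near these shares. Their median was 1.23 in OB minus STR and 0.92 in DG minus STR, beside coding medians of 0.53 and 0.26. After median ratio scaling, which brings the OB minus STR coding median to 0.0074, 2 relatives were higher in OB and the medians were 0.90 and 0.64; with the library set as a term they were 0.52 and 0.11. Sp8, the closest relative of Sp9 and a gene of bulb interneurons, was at 45.4 FPKM in OB, 4.47 and 3.77 in the SVZ pair, 0.171 in DG and 0.0186 in STR. Sp7, known as the bone factor osterix, was at 31.9 FPKM in OB and under 0.75 in the other libraries. Zfp703, the relative of Zfp503, was at 21.9 FPKM in OB, 18.0 and 8.13 in the SVZ pair, 11.1 in DG and 4.67 in STR. It was thus highest in OB, where Zfp503 was lowest. Foxp4 and Bcl11a, named here after their values were seen, were also lowest in STR, at 3.99 and 20.6 FPKM, and highest in OB, at 17.0 and 71.8 FPKM.

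Of 28 other transcription factors of the striatal lineage, 27 were tested against STR. In OB, 6 were higher by 2 or more and 6 lower, against 6.4% and 2% of coding genes. In DG, 3 were higher and 10 lower, against 3.42% and 2.44%. Their medians were 0.82 and -0.84, beside coding medians of 0.53 and 0.26. After median ratio scaling they were 0.25 and -1.14, beside 0.0074 and -0.014. Six3 and the retinoid receptor gene Rxrg were, like Foxp1 and Isl1, high in SVZ and STR and low in OB and DG: Six3 was at 42.7 and 35.7 FPKM in the SVZ pair, 31.0 in STR and 0.210 in OB and listed at 0 in DG, and Rxrg at 84.2 and 65.7, 93.7, 8.95 and 1.49 FPKM. Meis2 and Dlx6 were lowest in DG, at 135 and 24.8 FPKM in STR, 207 and 26.2 in OB and 1.35 and 0.583 in DG. Dlx1, Dlx2 and Sox4, genes of neuroblasts, were low in STR (2.50, 0.478 and 1.61 FPKM) and high in OB (167, 50.1 and 63.9 FPKM). In the SVZ pair Dlx1 was at 54.9 and 40.0 FPKM, Dlx2 at 33.3 and 9.36 and Sox4 at 44.4 and 16.4. Of the 27 genes tested in SVZ minus STR, 5 were higher by 2 or more and 0 lower, against 1.48% and 0.142% of coding genes. Bhlhe22, a gene of excitatory neurons, was highest in DG, at 106 FPKM there and at 1.43 or less elsewhere.

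Genes that mark the mature classes were compared as context. Of the 6 direct pathway genes, 3 were lower by 2 or more in OB minus STR and 4 in DG minus STR. Of coding genes, 2% and 2.44% were lower by that much in these pairs. All 5 indirect pathway genes were lower by that much in both pairs, as were 10 of 12 genes shared by both classes. In SVZ minus STR, 0 genes of these lists lay that far apart, against 1.48% of coding genes higher and 0.142% lower. A count of 0 among so few genes is near these shares. The medians of the 3 lists were 0.00, -0.16 and -0.07, beside a coding median of 0.24. The direct pathway gene Pdyn, which encodes prodynorphin and is named after its values were seen, was just short of that size at 1.96 ± 0.39, with 133 and 116 FPKM in the SVZ pair and 31.2 in STR. Foxp1 and Isl1 were thus low in OB and DG beside most of these genes, whereas Bcl11b was at 62.5 FPKM in DG and Sp9 at 79.7 FPKM in OB. The difference between members and lists was not tested.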

How the data were processed

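Poly(A) RNA of 5 libraries (SVZ 2, OB, DG and STR 1 each) was analysed. The authors deposited FPKM values per transcript. Per the submitters' processing notes, which give no roles, CASAVA, TopHat 1.2.0, Cufflinks 1.0.0 and build mm9 were used. Deposited locus starts were taken to count from 0 and raised by 1: of 4313 catalogue loci with 1 transcript, 2784 start at the 0-based start of the catalogue's BED file, 0 start 1 base above it and 1529 start further out, so a deposited locus can be wider than its gene.

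RefSeq transcripts were summed per symbol (20340 coding and 1731 noncoding genes), and catalogue transcripts per locus (5731). With limma 3.58.1 (R 4.3.3), a model with trended empirical Bayes was fitted to log2(FPKM + 1) of genes that reached 1 FPKM in a library, with 4 region groups. The pseudocount of 1 understates differences of low genes. The 1 residual degree of freedom is that of the SVZ pair, whose samples lie in different library sets. P-values were adjusted by Benjamini-Hochberg over the genes that reached 1 FPKM in at least 1 library of the pair. Members 2 or more log2 units apart were also counted by size, as OB, DG and STR have 1 sample each. The fit was tested on simulated data that held neither library sets nor a GC trend, so that test does not cover them. The 10 alternatives changed pseudocount, filter, scaling, GC centring (20 bins; 98.3% of coding genes had a GC value from GENCODE M21), transcript sum, trend, library set and SVZ sample.

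All 9 members are named, with the 3 most similar genes of each. Genes of the relatives and lineage lists are named at 5 FPKM or more and 2 or more units from STR in OB or DG, at most 8 a list. The members and lists were chosen with earlier results of these data known.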

Additional observations from a re-analysis of the deposited data

How the results depend on the processing

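Of 500 values of single members under the alternatives, 469 kept their direction and their side of a difference of 2, 17 passed it newly, 6 fell short of it and 8 changed sign. The 8 were all in SVZ minus STR and within 0.17 of 0 in the values reported: Isl1 became -0.16 after median ratio scaling, -0.18 after quantile normalization and -0.00071 after GC centring, Ikzf1 -0.060, -0.19 and -0.12, and Bcl11b 0.020 with the library set as a term. Leaving out 1 SVZ sample gave Bcl11b a range of -0.061 to 0.020.

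Counts of members 2 or more apart moved by over 1.5 times as follows. With a pseudocount of 0.1, 1 member (Gsx2) was higher in SVZ than STR and 5 in SVZ than OB. With the library set as a term, 0 were higher in OB than STR and 5 lower in DG than STR (Ebf1 and Sp9 joined). With GC centring, 4 were lower in OB than STR (Bcl11b and Zfp503 joined). Leaving out 1 SVZ sample gave 0 to 1 higher in SVZ than STR (Sp9 without sample 2) and 0 to 1 lower in SVZ than OB (Sp9 without sample 1). Smaller moves were the loss of Ebf1 from SVZ minus DG (4 higher with quantile normalization, GC centring and without SVZ sample 1), the loss of Foxp2 from SVZ minus OB (GC centring, and the highest transcript, with 2 higher) and the gain of Foxp2 in OB minus STR (3 lower with median ratio scaling and quantile normalization), of Ebf1 in DG minus STR (4 lower) and Gsx2 in SVZ minus DG (6 higher) with a pseudocount of 0.1, and of Zfp503 in SVZ minus OB (quantile normalization, GC centring, library set, without SVZ sample 2).

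Members with a limma adjusted p under 0.05 were 0 as reported. With quantile normalization they were 2 in OB minus STR, 2 in DG minus STR, 2 in SVZ minus OB and 3 in SVZ minus DG. With GC centring they were 3, 3, 4 and 5 in these pairs and 2 in OB minus DG. The cause was not tested.

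No paired analysis was possible because the SVZ alone has 2 samples. With 1 sample each of OB, DG and STR and unknown depth, levels near 0 cannot be ranked.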

Other observations

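Markers of other cell types gave further values for these libraries. The 6 ependymal genes summed to 279 and 118 FPKM in the SVZ samples, 16.2 in OB, 14.1 in DG and 3.19 in STR. The 7 cortical and CA excitatory neuron genes summed to 1104 FPKM in DG, 472 in OB, 29.1 in STR and 6.47 and 11.6 in the SVZ samples. Without Slc17a7, which made up most of the OB sum, they summed to 351, 19.5, 7.68, 4.18 and 5.52 FPKM. The 4 mitral and tufted cell genes summed to 374 FPKM in OB and to 18.1 to 32.8 elsewhere. The 6 oligodendrocyte genes summed to 2922 and 2453 FPKM in the SVZ samples, 2792 in STR, 1356 in OB and 771 in DG, and the 6 endothelial genes to 93.6 and 51.5, 65.4, 156 and 76.7 FPKM.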
